A study of Mus musculus with 43 samples.

Results

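The genes described here encode the integrins, the laminins and the proteins that tie laminin into the basement membrane, and they were measured in the lungs of bleomycin mice with and without nintedanib. Members were taken by gene symbol: Itga or Itgb followed by 1 to 3 characters (without Itgbl1), Lama, Lamb or Lamc followed by a number, and Nid1, Nid2, Hspg2 and Agrn. The rule found 43 of the 21938 genes in the table. They comprise 18 integrin alpha chains, 9 integrin beta chains, 11 laminin chains, 4 nidogens and basement membrane proteoglycans, and Itgb3bp, which fits the letters of the rule but encodes a centromere protein and no integrin. All 43 passed the filter on low counts and were tested.

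RNA was sequenced from the inferior lung lobe of 43 mice, as single-end reads of directional polyA libraries. Control mice given vehicle gave 10 libraries, mice labelled BLEO-IPF and given the vehicle of nintedanib gave 16, and BLEO-IPF mice given nintedanib gave 17. They are called control, vehicle and nintedanib mice below. Bleomycin is a DNA-breaking antibiotic that induces lung fibrosis in rodents, and nintedanib is a tyrosine kinase inhibitor given to patients with pulmonary fibrosis. Which vehicle the control group received is not stated, so a difference in vehicle and the effect of bleomycin cannot be told apart. Dose, route, day, age, sex and strain are not in the labels. Nothing beyond separate sample names says that each library is 1 mouse, and the p-values therefore speak only of the scatter among these libraries, which may in part be technical.

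Integrins are cell surface receptors made of 1 alpha and 1 beta chain, and the pairing sets the ligand: collagens, laminins, proteins with an arginine-glycine-aspartate (RGD) sequence such as fibronectin and the latent form of TGF-beta, or counter-receptors on other cells. Laminins are trimers of 1 alpha, 1 beta and 1 gamma chain that self-assemble into the sheet on which epithelium, endothelium and muscle rest, and nidogens, perlecan and agrin join that sheet to collagen IV and to cells. In the alveolus the basement membranes of epithelium and capillary are largely fused. Integrins of the alphav group are known for releasing active TGF-beta, which drives matrix production in fibrosis.

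The lowest and highest library totals were 13138281 and 17812995 counts for control, 13175246 and 19111457 for vehicle and 13324549 and 18723538 for nintedanib libraries. Lung markers were high in every library; the lowest value of Sftpc, the surfactant protein C gene of type 2 cells, was 8784 CPM (counts scaled to a common library size, with TMM factors) and that of Ager, a type 1 cell gene, was 1271 CPM. The library numbers fall into 3 series of 33, 4 and 6 libraries, called A, B and C here, whose meaning the labels do not give. Adipoq, an adipocyte gene, reached 1 CPM in 8 of 10 control, 0 of 16 vehicle and 5 of 17 nintedanib libraries. A few libraries held many of the extreme values among the members. Nintedanib replicate 14 was the lowest of its group for 19 of the 43 members, and vehicle replicate 10 for 15. Nintedanib replicate 10 was the highest of its group for 14 members and vehicle replicate 4 for 13. Vehicle replicate 4 also stood apart in markers: its summed activated fibroblast markers came to 8784 CPM against 1129 to 4013 in the other vehicle libraries, and its summed type 1 cell markers to 4036 CPM against 6986 to 11070. Replicate numbers here only name libraries.

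Promoter sequence is shown for 4 integrin genes on which the results below turn: Itgax and Itgam, which lie next to each other on chromosome 7 and share the partner Itgb2 but changed differently, and Itgav and Itgb6, which form 1 receptor and both rose. Each run is the 250 bases before a RefSeq start site on GRCm38.p6, read 5′ to 3′ on the gene's own strand. The positions are chr7:128129300-128129549 (plus strand) for Itgax, chr7:128062390-128062639 (plus) for Itgam, chr2:83724147-83724396 (plus) for Itgav, and chr2:60673694-60673943 and chr2:60722604-60722853 (both minus) for the first and second start of Itgb6. The Itgb6 starts are numbered by coordinate. On the minus strand the second lies near the 5′ end of the gene and the first lies inside the gene. Capitals mark matches, on either strand, to TGANTCA (AP-1), GAGGAA (PU.1), GGAATG (TEAD) or GGGCGG (Sp1), none of which overlaps another in these runs.
Itgax: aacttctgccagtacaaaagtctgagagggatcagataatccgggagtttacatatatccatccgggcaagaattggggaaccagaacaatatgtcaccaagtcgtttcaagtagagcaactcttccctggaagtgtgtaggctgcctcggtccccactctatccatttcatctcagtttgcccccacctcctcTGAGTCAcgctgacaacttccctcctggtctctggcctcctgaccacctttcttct
Itgam: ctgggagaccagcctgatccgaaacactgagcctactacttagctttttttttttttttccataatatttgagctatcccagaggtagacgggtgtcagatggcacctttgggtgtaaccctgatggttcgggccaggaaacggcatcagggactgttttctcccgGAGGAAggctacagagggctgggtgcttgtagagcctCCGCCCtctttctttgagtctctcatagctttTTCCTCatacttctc
Itgav: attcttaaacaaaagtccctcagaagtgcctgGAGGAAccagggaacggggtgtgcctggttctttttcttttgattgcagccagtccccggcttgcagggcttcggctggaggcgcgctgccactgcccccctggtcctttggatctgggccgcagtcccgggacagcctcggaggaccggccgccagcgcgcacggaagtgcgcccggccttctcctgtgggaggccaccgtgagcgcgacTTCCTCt
Itgb6, first start: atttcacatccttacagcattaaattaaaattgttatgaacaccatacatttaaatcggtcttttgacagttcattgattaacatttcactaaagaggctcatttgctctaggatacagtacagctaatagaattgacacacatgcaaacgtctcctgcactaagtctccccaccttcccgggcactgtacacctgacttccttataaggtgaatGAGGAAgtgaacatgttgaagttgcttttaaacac
Itgb6, second start: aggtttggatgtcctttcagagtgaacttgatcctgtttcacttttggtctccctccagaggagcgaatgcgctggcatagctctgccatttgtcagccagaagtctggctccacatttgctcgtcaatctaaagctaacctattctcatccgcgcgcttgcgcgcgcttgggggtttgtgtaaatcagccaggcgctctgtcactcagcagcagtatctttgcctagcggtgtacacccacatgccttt

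The Itgax run held 1 AP-1 match, which begins 56 bases before the start. The Itgam run held 2 PU.1 matches and 1 Sp1 match, the Itgav run 2 PU.1 matches, the first Itgb6 run 1 PU.1 match and the second none. RefSeq windows from 250 bases before to 50 bases after a start were found for 28 of the 43 members (32 windows). Over 32851 such windows of the whole genome, the AP-1 letters occurred in 7.81%, the PU.1 letters in 28.3%, the TEAD letters in 14.7% and the Sp1 letters in 35.7%. Among the 32 windows of members the shares were 9.38%, 50%, 12.5% and 50%, in the same order. A match describes these letters and is no measured binding site.

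In control lungs, compared per exon length as RPKM (CPM per kilobase of exon), Itgb1, the shared partner of most collagen, laminin and fibronectin receptors, was the most abundant beta chain, with a group median of 220 RPKM and values from 199 to 249. Itgb5, a vitronectin receptor chain, followed at 44.4 RPKM and Itgb2, the leukocyte beta chain, at 36.7. Itgb8, an alphav partner, was the lowest beta chain at 0.104. Among alpha chains Itga3, a laminin receptor chain of epithelium, led at 73.0 RPKM, ahead of Itga8, the nephronectin receptor chain of fibroblasts, at 33.1, and Itga6, another laminin receptor chain, at 19.1. Itgad, a leukocyte chain, was the lowest alpha chain at 0.214. Of the laminin chains Lamb2 had the highest control median, 50.9 RPKM, and Lama1, a chain of early embryonic basement membranes, the lowest, 0.333.

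The order changed in vehicle mice. Itgb2 stood second among beta chains at 154 RPKM behind Itgb1 at 244, and Itgax, the CD11c chain of macrophages and dendritic cells, stood second among alpha chains at 64.2 behind Itga3 at 91.0. Among laminin chains Lamb3, a beta chain of epithelial laminin, had a median of 51.3 RPKM in vehicle mice, close to Lamb2 at 56.5, after 25.6 and 50.9 RPKM in control mice. These medians are levels, and neighbours in an order with overlapping ranges, such as Itga6 and Itga9 in control mice (19.1 and 18.2 RPKM), are not ranked by a test.

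**Figure D1:**
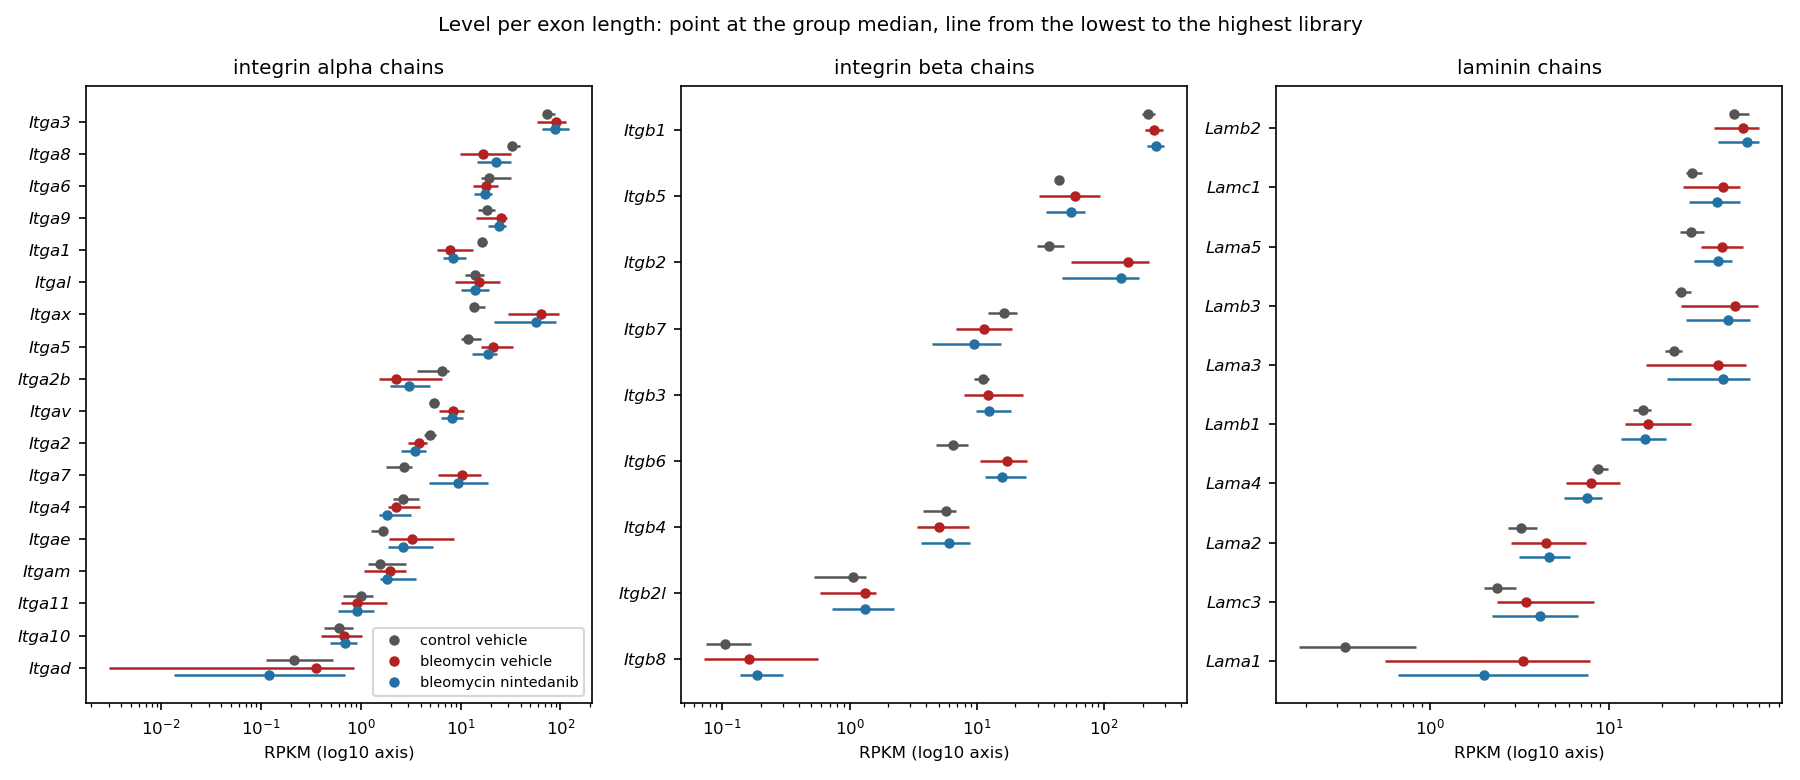
Level per exon length (RPKM, log10 axis) of integrin alpha, integrin beta and laminin chains, ordered by the control median. Points are group medians and lines run from the lowest to the highest library of 10 control (grey), 16 vehicle (red) and 17 nintedanib (blue) mice; 1 vehicle library held 0 counts of Itgad and its line is drawn from the left end of the axis, which is not its value. Itgb1 leads the beta chains in all 3 groups, and the red and blue points of Itgb2 and Itgax lie far to the right of the grey ones.

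The first comparison asked how bleomycin lungs differed from control lungs. In vehicle mice, 29 of the 43 members passed an adjusted p of 0.05, 24 of them higher and 5 lower (67.4% of members), in edgeR's quasi-likelihood test with Benjamini-Hochberg adjustment over 14836 genes. Over all 14836 genes the same test called 57.9%, with 29.5% higher and 28.3% lower. The members' share of calls was thus not far from the background, and their calls lay mostly on the higher side. The median member log2 fold change was 0.29, and that of all genes was -0.01. Of the alpha chains 7 of 18 rose and 4 fell, of the beta chains 6 of 9 rose and 1 fell, of the laminin chains 8 of 11 rose and 0 fell, and of the nidogens and proteoglycans 3 of 4 rose. At least 2-fold changes were called for 8 members (background 10.1% of all genes), and for 9 members no vehicle library overlapped any control library (background 5.55%). In bulk tissue, more or fewer cells of a type and more or less RNA per cell cannot be told apart.

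**Figure D2:**
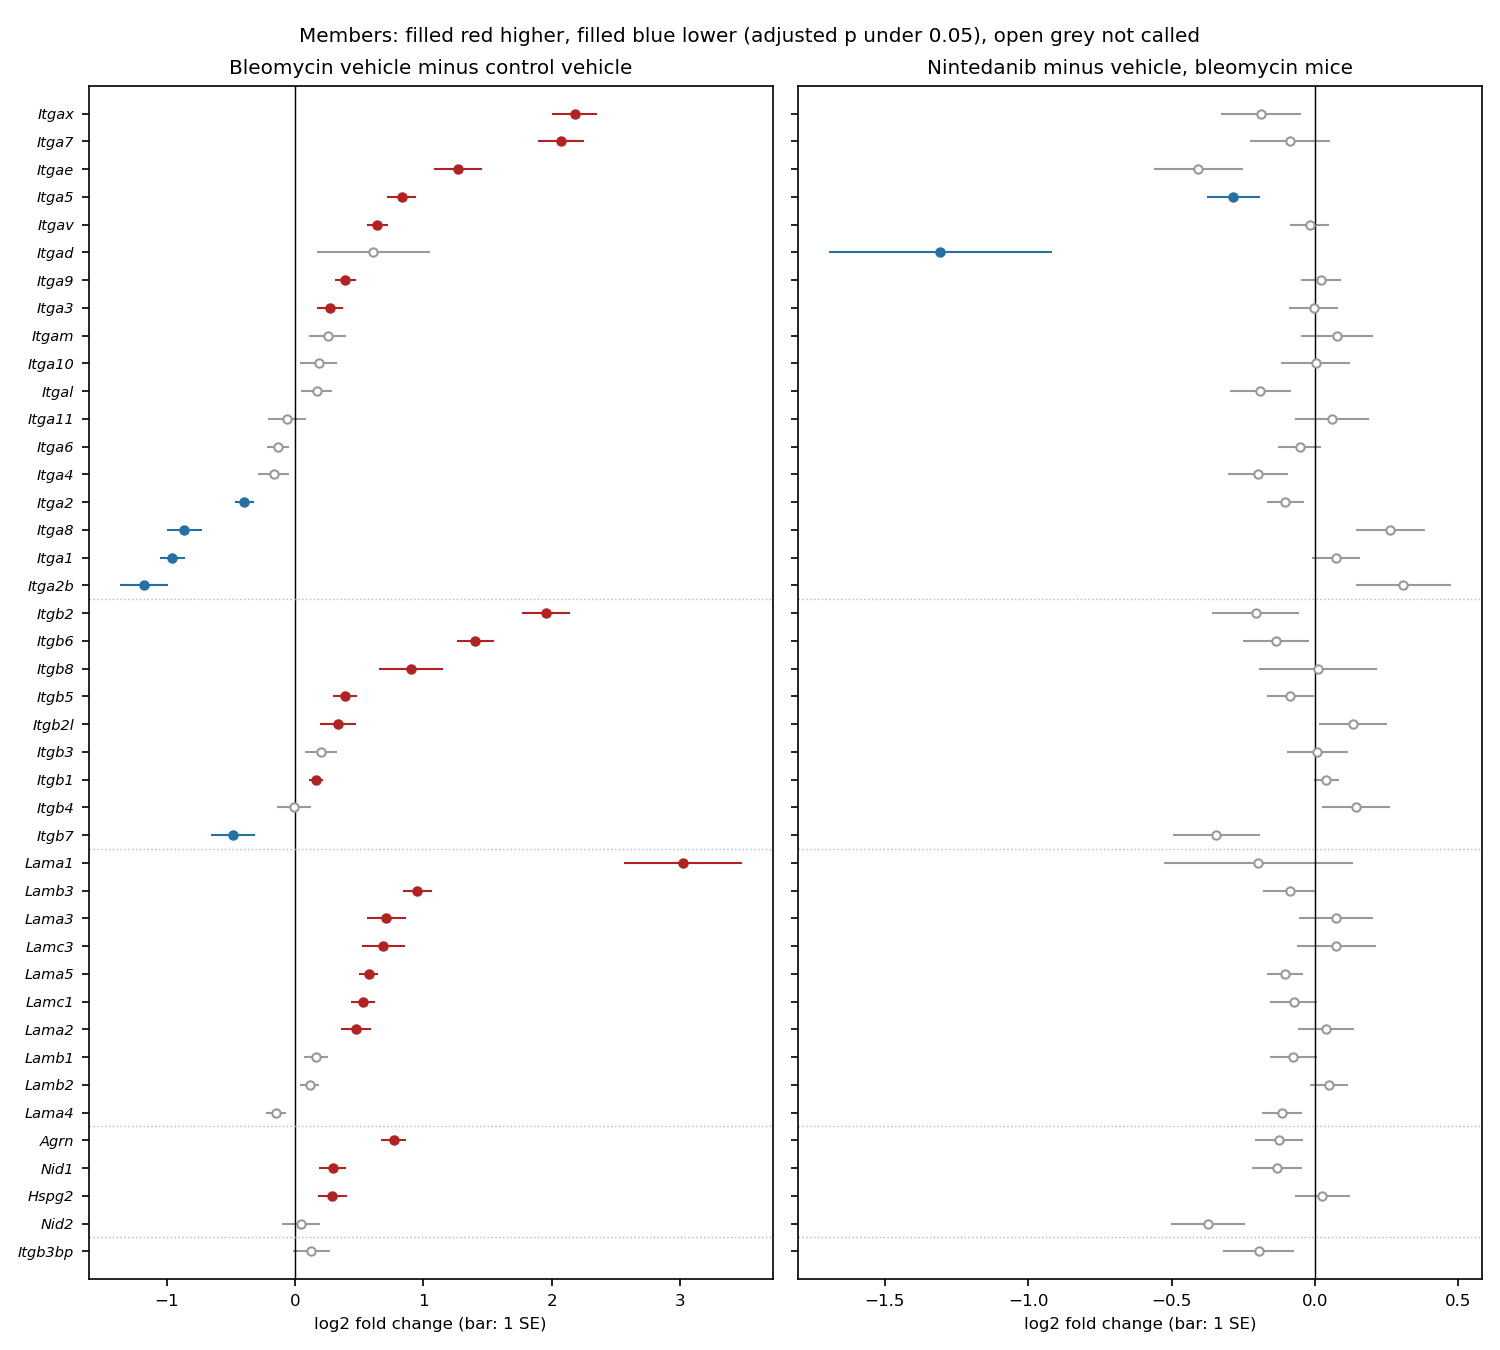
Log2 fold change (x axis) with 1 standard error for members grouped by kind, for vehicle against control mice (left) and nintedanib against vehicle mice (right, on its own scale). Filled points passed the adjusted p of 0.05 (red higher, blue lower); on the right these are Itga5 and Itgad.

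Among the leukocyte integrins Itgax, Itgb2 and Itgae rose more than 2-fold, Itgb2l rose slightly and Itgb7 fell. Itgal, Itgam, Itgad and Itga4 did not pass the test. Itgax (GRCm38 chr7:128129547-128150657) had 59.7 CPM in the lowest, 65.7 in the median and 85.0 in the highest control library, and 144, 308 and 463 CPM in vehicle mice. Every vehicle library lay above every control library, a 4.52-fold rise (log2 fold change 2.18 ± 0.18 SE, edgeR adjusted p = 2.75e-13). Itgb2 (chr10:77530252-77565708), which encodes CD18, the only beta chain that pairs with CD11 chains, ran from 89.7 through 112 to 148 CPM in control and from 168 through 470 to 686 CPM in vehicle mice, again without overlap. The rise was 3.87-fold (log2 1.95 ± 0.19, edgeR adjusted p = 2.53e-11).

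The other alpha partners of Itgb2 did not follow it past the threshold. Itgal, the CD11a chain of LFA-1 on lymphocytes, had medians of 92.4 and 101 CPM in control and vehicle mice (log2 0.17 ± 0.12, edgeR adjusted p = 0.243). Itgam, the CD11b chain of neutrophils and monocytes and the gene beside Itgax, had medians of 7.77 and 9.95 CPM (log2 0.25 ± 0.15, edgeR adjusted p = 0.131). Itgad, the CD11d chain, was near the detection limit, with medians of 0.964 and 1.60 CPM and 1 vehicle library at 0 counts, which allows up to 0.214 CPM at 3 counts (log2 0.61 ± 0.44, edgeR adjusted p = 0.234). Itgb2l, a gene related to Itgb2, rose slightly from 4.56 to 5.74 CPM (log2 0.34 ± 0.14, edgeR adjusted p = 0.0361), a call that ended in 14 of 43 fits that each left out 1 library (7 control, 5 vehicle and 2 nintedanib), with adjusted p up to 0.112. The Itgb2l call also ended within series A and with library totals in place of TMM scaling.

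Itgae, the CD103 chain that pairs with Itgb7 and binds E-cadherin on epithelium, rose 2.41-fold from a median of 7.65 CPM (5.75 to 8.49) to 15.0 CPM (8.70 to 39.3), without overlap (log2 1.27 ± 0.19, edgeR adjusted p = 3.06e-07). Its partner Itgb7 fell, from a median of 45.4 CPM to 31.6 CPM, with 13 of 16 vehicle libraries under the control median (log2 -0.48 ± 0.17, edgeR adjusted p = 0.016). Itga4, the other partner of Itgb7 and part of the VLA-4 receptor of lymphocytes, had medians of 37 and 31.3 CPM (log2 -0.17 ± 0.12, edgeR adjusted p = 0.239). The fall of Itgb7 did not pass the test within series A (log2 -0.32, edgeR adjusted p = 0.15) or without the Adipoq libraries (log2 -0.53, edgeR adjusted p = 0.23).

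Markers of leukocyte classes moved in different directions. Of 11 markers of monocyte-derived macrophages 10 rose and 0 fell, and their summed level ran from 766 to 1087 CPM in control and from 2282 to 5665 CPM in vehicle mice. Alveolar macrophage markers gave 5 rises and 3 falls of 10 (547 to 834 against 487 to 3472 CPM summed), and dendritic cell markers 6 rises and 2 falls of 10 (201 to 255 against 239 to 496 CPM). T cell markers gave 1 fall of 9 (63.3 to 100.4 against 43.6 to 164 CPM), B cell markers 7 falls of 8 (238 to 442 against 89.5 to 392 CPM) and neutrophil markers 3 falls of 6 tested (69.2 to 187 against 26.4 to 126 CPM). None of these markers was at 0 in a whole group. Their part in the leukocyte integrin results was not tested.

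Among the RGD-binding and TGF-beta-activating integrins, both chains of alphav beta6 rose. Itgb6 (chr2:60598292-60722643), an epithelial chain, had 34.2 CPM in the lowest, 46.5 in the median and 60.0 in the highest control library, and 75.1, 123 and 177 CPM in vehicle mice. No library overlapped, and the rise was 2.65-fold (log2 1.41 ± 0.14, edgeR adjusted p = 5.75e-11). Itgav (chr2:83724397-83806916), the alpha chain of all alphav receptors, ran from 52.3 through 58.0 to 64.9 CPM in control and from 65.5 through 91.2 to 116 CPM in vehicle mice. These ranges did not meet either, and the rise was 1.56-fold (log2 0.64 ± 0.08, edgeR adjusted p = 1.08e-08).

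Itga5 (chr15:103344286-103366763), which with Itgb1 forms the fibronectin receptor, rose 1.78-fold from a median of 58.6 CPM (49.9 to 79.9) to 105 CPM (79.5 to 167). Only 1 vehicle library lay inside the control range (log2 0.83 ± 0.11, edgeR adjusted p = 3.1e-08). Itgb5 rose 1.31-fold (158 to 209 CPM in the median, edgeR adjusted p = 0.000523). Itgb8, which activates TGF-beta in complex with alphav, rose 1.87-fold at a low level, from 1.16 to 1.81 CPM in the median, with 8 of 16 vehicle libraries inside the control range (log2 0.90 ± 0.25, edgeR adjusted p = 0.00219). Vehicle replicate 4 held its highest value, 6.25 CPM, and without that library the log2 change was 0.70 (edgeR adjusted p = 0.0077). Itgb3, another alphav partner and the platelet fibrinogen receptor chain, had medians of 65.8 and 71.5 CPM (log2 0.20 ± 0.12, edgeR adjusted p = 0.158).

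Itga8, whose receptor with Itgb1 also binds RGD ligands, fell. Itga8 (chr2:12106632-12301922) ran from 229 through 244 to 294 CPM in control and from 72.1 through 123 to 238 CPM in vehicle mice, with 1 vehicle library inside the control range (log2 -0.86 ± 0.14, edgeR adjusted p = 1.18e-06). Npnt, the gene of its ligand nephronectin, gave a log2 change of -0.24 ± 0.12 (edgeR adjusted p = 0.088). Alveolar fibroblast markers, Npnt among them, gave 8 falls and 0 rises of 10, with a summed level of 6902 to 8172 CPM in control and 2464 to 6335 CPM in vehicle mice. Activated fibroblast markers gave 8 rises of 10, with 869 to 1083 CPM against 1129 to 8784 CPM. Their part in the result was not tested.

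The collagen receptor chains that pair with Itgb1 fell or did not pass the test. Itga1 (chr13:114953096-115101964) had 280, 302 and 340 CPM as lowest, median and highest values in control mice, and 109, 147 and 247 CPM in vehicle mice. All vehicle libraries lay below all control libraries, a 1.94-fold fall (log2 -0.96 ± 0.10, edgeR adjusted p = 6.89e-11). Itga2, its neighbour on chromosome 13 and also a collagen receptor chain, fell 1.32-fold, from a median of 35.1 to 27.1 CPM, with 1 vehicle library inside the control range (log2 -0.40 ± 0.07, edgeR adjusted p = 1.33e-05). Itga10 and Itga11, the collagen receptor chains of cartilage and of fibroblasts, stayed low, with medians of 3.16 and 3.51 CPM for Itga10 (log2 0.18 ± 0.14) and of 5.13 and 4.67 CPM for Itga11 (log2 -0.06 ± 0.15), and neither passed the test. General capillary markers gave 9 falls and 1 rise of 10 (3368 to 4786 against 1413 to 3413 CPM summed), and their part in the fall of Itga1 was not tested.

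Of the laminin receptor chains Itga7 changed by far the most. Itga7 (chr10:128933818-128958282), known best from muscle, rose 4.20-fold from a median of 21.7 CPM (14.4 to 26.6) to 83.4 CPM (47.6 to 130), without overlap (log2 2.07 ± 0.18, edgeR adjusted p = 1.24e-12). Smooth muscle markers gave 0 rises and 6 falls of 9 (444 to 684 against 335 to 788 CPM summed). Cardiac muscle markers gave 0 rises and 7 falls of 7 tested (314 to 1693 against 20 to 576 CPM). The part of muscle cells in the rise of Itga7 was not tested. Itga3 rose 1.21-fold (417 to 520 CPM in the median, edgeR adjusted p = 0.0177), a call that ended without vehicle replicate 8 or without control replicate 5 or 7 (adjusted p 0.0503 to 0.051). The call also ended within series A (log2 0.19, edgeR adjusted p = 0.14), with 2 surrogate variables (hidden sources of variation estimated from all genes and added to the model; log2 0.07, edgeR adjusted p = 0.55) and without the Adipoq libraries (log2 0.23, edgeR adjusted p = 0.43). Itga6 and Itgb4, the chains of the hemidesmosome receptor of basal epithelium, did not pass the test: Itga6 gave log2 -0.13 ± 0.09 and Itgb4 log2 -0.01 ± 0.14. Itgb1 rose 1.12-fold, from 897 to 998 CPM in the median (log2 0.16 ± 0.05, edgeR adjusted p = 0.00744).

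Itga9, a receptor chain for tenascin and VCAM1, rose 1.31-fold from 140 to 195 CPM in the median (edgeR adjusted p = 9.11e-05). Itga2b, the platelet and megakaryocyte chain that pairs with Itgb3, fell 2.27-fold from a median of 35.2 CPM (19.9 to 41.6) to 12.3 CPM (8.22 to 35.8), with 2 vehicle libraries inside the control range (log2 -1.18 ± 0.19, edgeR adjusted p = 9.78e-07). The log2 change was -0.71 with 2 surrogate variables (edgeR adjusted p = 0.00053), and -0.88 without the Adipoq libraries, where it did not pass (edgeR adjusted p = 0.067). All 9 tested platelet and megakaryocyte markers fell as well, with a summed level of 42.5 to 107 CPM in control and 18.9 to 90.6 CPM in vehicle mice, and Gp1bb, a defining marker, was at 0 in every group. The part of platelets or megakaryocytes in the fall of Itga2b was not tested. Itgb3bp, the centromere protein gene, had medians of 3.69 and 3.72 CPM and did not pass the test (log2 0.13 ± 0.14).

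**Figure D3:**
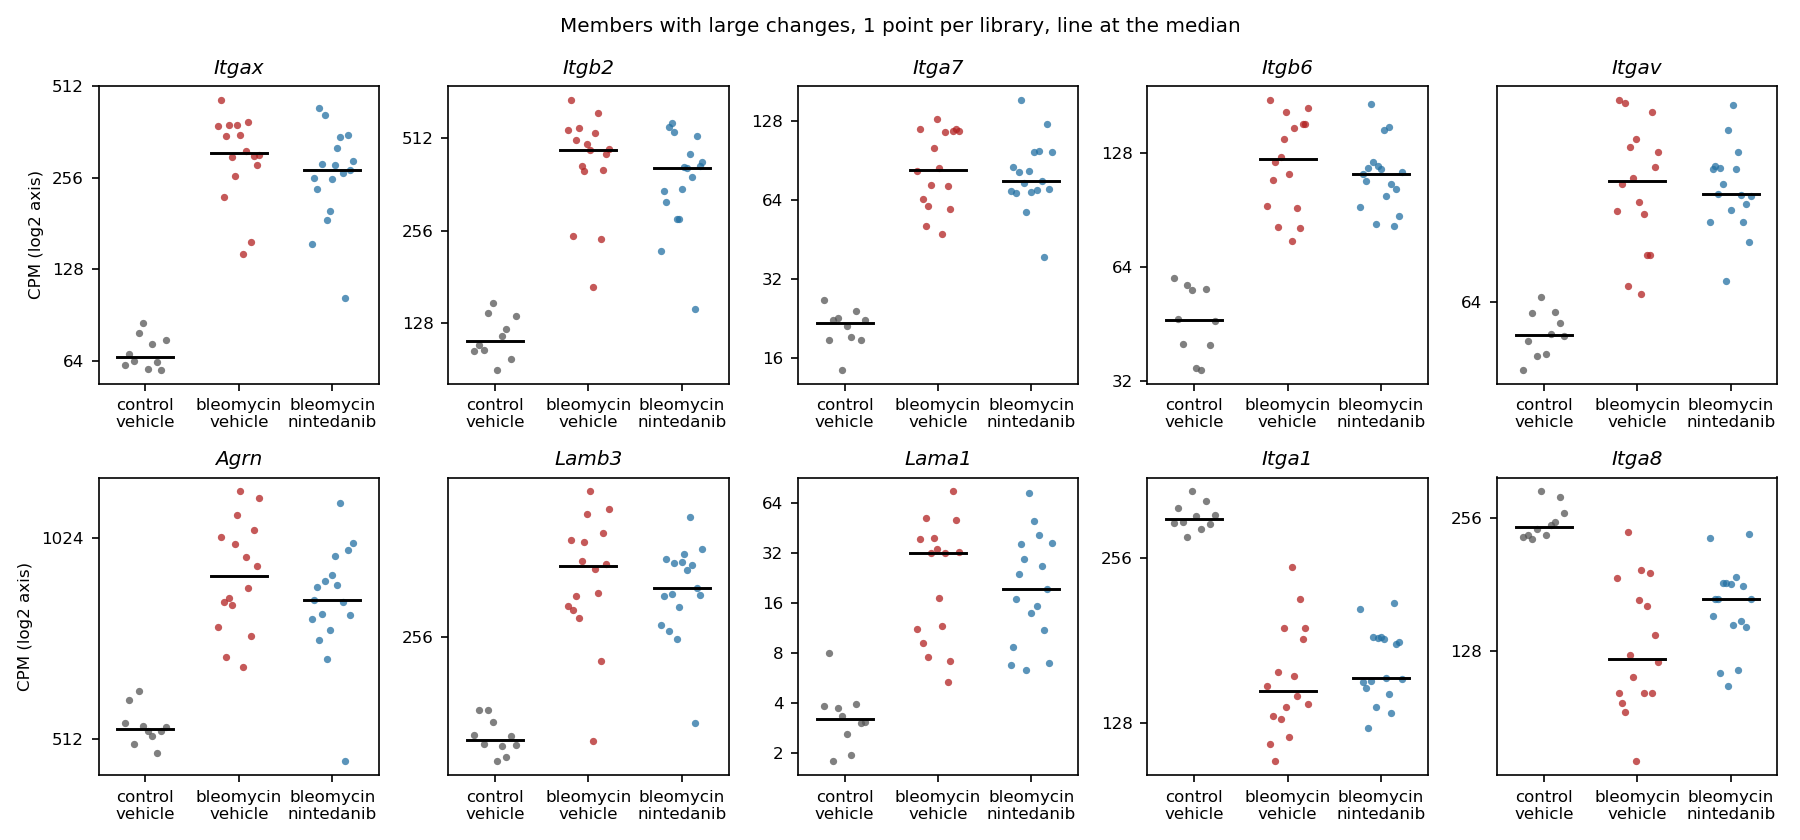
CPM (log2 axis) of 10 members in each library of 10 control (grey), 16 vehicle (red) and 17 nintedanib (blue) mice, with a line at each group's median. Itgax, Itgb2, Itga7, Itgb6, Itgav and Agrn have no overlap between control and vehicle libraries on the higher side and Itga1 on the lower side, and the red and blue points overlap in every panel.

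Lama3 and Lamb3, an alpha and a beta chain of epithelial laminin, both rose. Lamb3 (chr1:193207699-193343878) rose 1.94-fold from 169 CPM (155 to 191) to 339 CPM (169 to 459), with 1 vehicle library inside the control range (log2 0.95 ± 0.11, edgeR adjusted p = 1.94e-09). Lama3 rose 1.64-fold from 249 CPM (224 to 276) to 440 CPM (174 to 631), with 14 of 16 vehicle libraries above the control median and the other two below the whole control range (log2 0.71 ± 0.15, edgeR adjusted p = 0.000107).

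Markers of the transitional alveolar epithelium, the state between type 2 and type 1 cells, rose together with these chains and with Itgb6: 10 of 10 rose, and their summed level ran from 1087 to 1335 CPM in control and from 1702 to 3688 CPM in vehicle mice. Type 1 markers gave 3 rises and 1 fall of 10, type 2 markers 5 rises of 10, and basal cell markers 3 rises of 6 at a low level (1.66 to 19 against 1.19 to 156 CPM summed). Their part in the Lama3, Lamb3 and Itgb6 results was not tested.

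Lama1 (chr17:67697259-67822647) had the largest fold change of the 43 members, with a wide spread (SD of log2 CPM 1.19 in vehicle mice, where that of the sparse Itgad was 1.3). Control values were 1.78, 3.22 and 8.06 CPM as lowest, median and highest, and vehicle values were 5.36, 32.1 and 75.8 CPM. In the vehicle group 3 libraries lay inside the control range, whose highest value came from control replicate 2. The rise was 8.11-fold (log2 3.02 ± 0.46, edgeR adjusted p = 4.41e-07). Its log2 change was 1.45 with 2 surrogate variables (edgeR adjusted p = 0.00021), and 2.33 without the Adipoq libraries, where it did not pass the test (edgeR adjusted p = 0.053).

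The remaining laminin chains rose less or did not pass the test. Lamc3 rose 1.61-fold (14.4 to 20.8 CPM in the median), Lama5, the alpha chain of adult epithelial and vascular basement membranes, 1.49-fold (329 to 491 CPM), Lamc1, the most widely used gamma chain, 1.45-fold (244 to 362 CPM) and Lama2, the alpha chain of muscle and nerve laminin, 1.39-fold (53.0 to 72.8 CPM). For Lama5 only 1 of 16 vehicle libraries lay inside the control range (edgeR adjusted p = 1.45e-08). Lama4, the endothelial alpha chain, gave log2 -0.15 ± 0.08 (edgeR adjusted p = 0.106), and the beta chains Lamb1 and Lamb2 gave log2 0.16 ± 0.10 and 0.12 ± 0.08 (edgeR adjusted p = 0.144 and 0.185). Lama4 passed the test as lower without vehicle replicate 4 or 6, nintedanib replicate 14 or control replicate 6 (log2 -0.22 to -0.18, edgeR adjusted p 0.00672 to 0.0468).

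Agrn (chr4:156165290-156197488), which encodes the heparan sulfate proteoglycan agrin, rose 1.70-fold without overlap, from 488, 529 and 604 CPM in control to 656, 896 and 1203 CPM in vehicle mice (log2 0.77 ± 0.10, edgeR adjusted p = 1.72e-08). Nid1, the main nidogen that links laminin to collagen IV, rose 1.23-fold from 133 to 172 CPM in the median (edgeR adjusted p = 0.0136). Hspg2, the gene of perlecan, rose 1.22-fold from 385 to 520 CPM (edgeR adjusted p = 0.026), and this call ended without vehicle replicate 4 or 8 and without each of 6 control libraries (replicates 3, 5, 6, 7, 8 and 10), with adjusted p 0.0559 to 0.0802. The Hspg2 call also ended within series A. Nid2, the second nidogen, had medians of 14.8 and 14.1 CPM and did not pass the test (log2 0.05 ± 0.15).

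The calls for the members with large changes did not hang on 1 library: in 43 fits that each left out 1 library, 26 to 29 members were called, and no called fold change (not log2) moved by a factor of more than 1.5. With the 13 libraries that held Adipoq left out, which keeps 2 of 10 control libraries, 15 members were called (11 higher and 4 lower, 14 of them among the 29), against 23.9% of all genes tested. Adipocyte markers ran from 28.4 to 2918 CPM summed in control and from 15.4 to 54.7 CPM in vehicle mice, and the members called in that reduced comparison included Itgax, Itgb2, Itga7, Itgb6, Itgav, Lamb3, Agrn, Itga1 and Itga8. Besides those named at their values, Itga9, Itgb1, Itgb2l, Itgb5, Itgb8, Lama2, Lama3, Lamc1, Lamc3, Nid1 and Hspg2 did not pass the test there (edgeR adjusted p 0.087 to 0.52). With 2 surrogate variables the log2 changes of Itgb1 (0.03), Itgb5 (0.15), Itgb8 (0.52), Lama2 (0.23), Nid1 (-0.06) and Hspg2 (-0.04) did not pass, and those of Itga5 (0.47), Itga8 (-0.57), Itga9 (0.22), Itgav (0.38), Lama3 (0.47), Lamb3 (0.61), Lamc1 (0.20) and Lamc3 (0.46) passed at a smaller size.

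Other genes of the adhesion pathway were read from 4 lists. Of 25 tested genes of integrin activation and focal adhesion, 8 rose and 11 fell (median log2 -0.11). Actn1, an actin crosslinker, rose by log2 0.72 ± 0.09, Parvg, the leukocyte parvin, by 0.72 ± 0.14 and Apbb1ip, the RIAM adaptor that brings talin to integrins, by 0.64 ± 0.11. Lims2, the PINCH-2 adaptor, gave -0.65 ± 0.10. Of 25 other basement membrane genes, 11 rose and 7 fell (median 0.03). Col15a1 rose by 2.0 ± 0.27, Col7a1, the anchoring fibril collagen, by 1.80 ± 0.30 and Col4a1, a chain of the main basement membrane collagen, by 1.28 ± 0.17, while Smoc1 gave -1.24 ± 0.27.

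Of 12 other matrix receptors and hemidesmosome genes, 6 rose and 3 fell (median 0.20). Lair1, an inhibitory collagen receptor of leukocytes, rose by log2 1.35 ± 0.15 and Sdc1, the epithelial syndecan, by 0.87 ± 0.07. Gp6, the platelet collagen receptor, gave -1.55 ± 0.27 and Col17a1, a hemidesmosome collagen, -1.30 ± 0.33. Integrin ligands gave 14 rises and 3 falls among 21 tested genes (median 0.60). The steepest were Ibsp at 6.36 ± 1.08, Spp1, the gene of osteopontin, at 4.50 ± 0.31, Tnc, the gene of tenascin-C, at 4.11 ± 0.41 and the fibrinogen gene Fga at 3.16 ± 0.73.

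The second comparison asked what nintedanib changed in bleomycin lungs. Of the 43 members 2 passed the test, Itga5 and Itgad, both lower under nintedanib (4.65% of members), against 7.31% of all genes called, 3.21% higher and 4.1% lower. At an unadjusted p under 0.05 there were 6 members; the share of all genes at that level was not computed, so this count has no background. The median member log2 change was -0.08, and that of all genes was -0.002. The groups overlapped for every member, as for all 14836 genes (0% without overlap). At least 2-fold changes were called for 1 member, Itgad, and for 0.479% of all genes. The 41 members not called had fitted log2 changes from -0.41 (Itgae) to 0.31 (Itga2b).

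Itga5 had 79.5, 105 and 167 CPM as lowest, median and highest values in vehicle mice and 64.0, 93.8 and 114 CPM in nintedanib mice. Of 17 nintedanib libraries 15 lay below the vehicle median and 12 inside the vehicle range. The fall was 1.22-fold (log2 -0.285 ± 0.09, edgeR adjusted p = 0.0485). Itgad had 0, 1.60 and 3.90 CPM in vehicle and 0.0603, 0.548 and 3.13 CPM in nintedanib mice, with 16 of 17 nintedanib libraries below the vehicle median. The fitted fall was 2.47-fold (log2 -1.31 ± 0.39, edgeR adjusted p = 0.0319), at counts of at most 68 per library.

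Both calls depended on single libraries. Leaving out nintedanib replicate 1, or vehicle replicate 2, 4, 8, 9 or 14, left 0 members called. In the fit without vehicle replicate 4, Itga5 gave log2 -0.24 (edgeR adjusted p = 0.0906) and Itgad -1.25 (edgeR adjusted p = 0.0503). The Itga5 call ended in 22 of the 43 fits that left out 1 library (11 nintedanib, 10 vehicle and 1 control), and the Itgad call in 6 (nintedanib replicate 1 and vehicle replicates 2, 4, 8, 9 and 14). Within series A alone neither passed the test (log2 -0.227 and -1.27, edgeR adjusted p = 0.17 and 0.09), and 3 other members did, Itga4, Itgae and Itgb7 (log2 -0.39, -0.62 and -0.63, edgeR adjusted p = 0.036, 0.032 and 0.022). Single libraries left out also brought Nid2 past the threshold in 7 fits, Itgae in 2 and Itga2b in 1, the fit without vehicle replicate 13 (log2 0.46, edgeR adjusted p = 0.0357).

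Nid2 and Itgae came next by p. Nid2 had 8.56, 14.1 and 38.3 CPM in vehicle and 9.58, 11.9 and 15.6 CPM in nintedanib mice, with 14 of 17 nintedanib libraries below the vehicle median (log2 -0.37 ± 0.13, edgeR adjusted p = 0.0625). Its highest vehicle value was that of replicate 4, and the log2 change was -0.23 without it (edgeR adjusted p = 0.149) and -0.42 without vehicle replicate 10 (edgeR adjusted p = 0.0261). Itgae had 8.70, 15.0 and 39.3 CPM in vehicle and 8.63, 12.2 and 24.5 CPM in nintedanib mice, also with 14 of 17 below the vehicle median (log2 -0.41 ± 0.15, edgeR adjusted p = 0.093). Its partner Itgb7 gave log2 -0.34 ± 0.15 (edgeR adjusted p = 0.154). Dendritic cell markers, which include cells that carry CD103, gave 5 falls and 0 rises of 10 under nintedanib (239 to 496 against 190 to 332 CPM summed), and T cell markers 0 calls of 9; their part in these values was not tested.

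**Figure D4:**
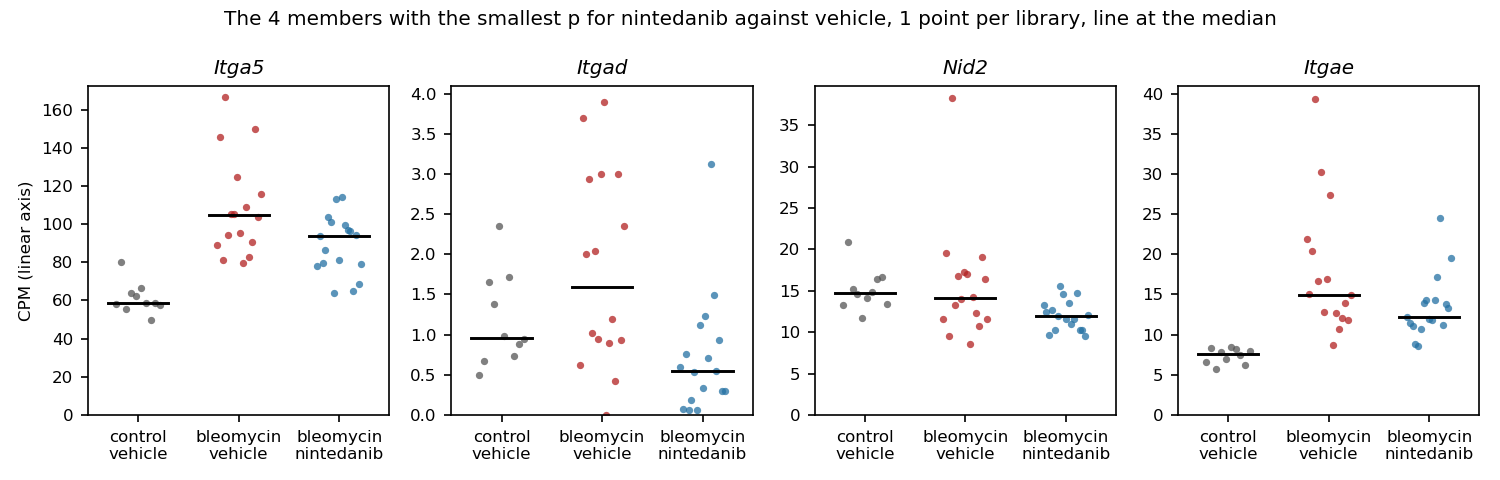
CPM (linear axis from 0) of the 4 members with the smallest p for nintedanib against vehicle, 1 point per library of 10 control (grey), 16 vehicle (red) and 17 nintedanib (blue) mice and a line at each median. Itga5 and Itgad passed the adjusted p of 0.05, Nid2 and Itgae did not, and the blue points overlap the red ones in all 4 panels.

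The members that changed most with bleomycin did not pass the test under nintedanib. Itgax had medians of 308 CPM in vehicle and 271 CPM in nintedanib mice (log2 -0.19 ± 0.14, edgeR adjusted p = 0.416), and Itgb2 of 470 and 410 CPM (log2 -0.21 ± 0.15, edgeR adjusted p = 0.408). Itgb6 gave log2 -0.14 ± 0.12 (123 to 113 CPM), Itgav -0.02 ± 0.07 (91.2 to 87.8 CPM) and Itga7 -0.09 ± 0.14 (83.4 to 75.6 CPM). Lama1 had medians of 32.1 and 19.3 CPM within wide ranges (5.36 to 75.8 and 6.34 to 73.9 CPM), and its log2 change was -0.20 ± 0.33 (edgeR adjusted p = 0.755). For Itga8 the medians were 123 and 168 CPM, with 14 of 17 nintedanib libraries above the vehicle median (log2 0.26 ± 0.12, unadjusted p = 0.0357, edgeR adjusted p = 0.173), and for Itga1 147 and 155 CPM (log2 0.07 ± 0.09).

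In the 4 lists of other adhesion genes, nintedanib gave few calls. Of the integrin activation and focal adhesion genes 3 of 25 fell, with log2 changes of -0.37 ± 0.12 for Parvg, -0.22 ± 0.06 for the kinase gene Ptk2b and -0.19 ± 0.05 for Bcar1, which encodes a docking protein, and 0 rose. Among other basement membrane genes only Col4a6 was called, at 0.39 ± 0.11, and among other matrix receptors only Dst, the gene of the hemidesmosome plakin, at 0.19 ± 0.06. Of the genes listed as integrin ligands 2 of 21 were lower, the TGF-beta genes Tgfb1 at -0.24 ± 0.07 and Tgfb2 at -0.22 ± 0.06.

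The third comparison set nintedanib mice against control mice; it shares the control libraries with the first, so its values stand beside those above and are not a repeat of them. Here 31 of 43 members were called, 24 higher and 7 lower (72.1%), against 53.2% of all genes (28.1% higher, 25.1% lower). No overlap with control libraries was seen for 7 members (background 7.37%) and a called change of at least 2-fold for 6 (background 7.41%). Log2 changes were 1.99 ± 0.18 for Itgax, 1.98 ± 0.18 for Itga7, 1.75 ± 0.19 for Itgb2, 1.27 ± 0.14 for Itgb6, 2.82 ± 0.45 for Lama1, -0.88 ± 0.10 for Itga1 and -0.60 ± 0.14 for Itga8. Members that passed here and not in the first comparison were Itga4 at -0.36 ± 0.12 (edgeR adjusted p = 0.00913), Lama4 at -0.26 ± 0.08 (edgeR adjusted p = 0.00444) and Itgam at 0.33 ± 0.14 (edgeR adjusted p = 0.0497), the last of which was called in 11 of 43 fits that left out 1 library and lost its call in 7 of the 9 other settings. Without the Adipoq libraries Itga4, Lama4, Itga8 and Lama1 did not pass in this comparison (edgeR adjusted p = 0.29, 0.42, 0.081 and 0.086). Itgax, Itga7, Itgb2, Itgb6 and Itga1 passed in all 9 other settings. Nid1 passed in the first comparison and not here (log2 0.16 ± 0.10, edgeR adjusted p = 0.179). Leaving out 1 library ended the call of Itga3 in 7 fits and of Hspg2 in 3, all without a control library (adjusted p up to 0.0629 and 0.0582), and brought Itga6 and Nid2 past the threshold in 16 fits each (log2 -0.25 to -0.20 and -0.40 to -0.35) and Lamb2 in 3 (0.15 to 0.18).

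Chains that form 1 receptor or 1 laminin could be followed from mouse to mouse within a bleomycin group. For 18 pairs of partner chains, correlations of log2 CPM were computed in vehicle mice and in nintedanib mice separately, 36 relations in all, with permutation tests of 100000 resamples and Benjamini-Hochberg adjustment over the 36. Of these, 22 were positive past an adjusted p of 0.05 and 1 was negative. The share of other gene pairs that would pass in these libraries was not computed, so the count has no background to stand against. The mice of a group share their processing, and summed cell type markers moved in the same libraries, so these correlations describe the libraries; the part of cell numbers was not tested.

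Itgax and Itgb2 gave the highest correlation in both groups. Pearson's r was 0.956 in 16 vehicle mice (Spearman's rho 0.932, adjusted permutation p = 0.00018 for both) and 0.958 in 17 nintedanib mice (rho 0.922, adjusted permutation p = 0.00018 for both), from raw p-values of 1e-05, the smallest that the permutations can give. Without the 2 mice farthest from the median of Itgax, r was 0.898 and 0.889, and within series A it was 0.966 and 0.921. Itgal and Itgb2 gave r of 0.763 and 0.761 (rho 0.779 and 0.787, adjusted permutation p of r 0.0013 and 0.001). Itgam and Itgb2 gave -0.458 and 0.274 (rho -0.362 and 0.172), and neither passed the test (adjusted permutation p of r 0.1 and 0.33).

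Itgav and Itgb6 gave r of 0.832 and 0.738 (rho 0.806 and 0.76, adjusted permutation p of r 0.00066 and 0.0021), 0.735 and 0.64 without the 2 farthest mice, and 0.797 and 0.685 within series A. Lama4 and Lamb1 of the endothelial laminin-411 gave 0.851 and 0.731 (rho 0.759 and 0.684, adjusted permutation p of r 0.00018 and 0.0028), 0.687 and 0.661 without the 2 farthest mice.

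Itga5 with Itgb1, Lama5 with Lamb2 and Lamb1 with Lamc1 also passed in both groups, with r from 0.557 to 0.784 over these 6 relations. Without the 2 farthest mice, r in vehicle and nintedanib mice was 0.762 and 0.446 for Itga5 and Itgb1. It was 0.521 and 0.469 for Lama5 and Lamb2, and 0.686 and 0.573 for Lamb1 and Lamc1. Itga8 with Itgb1, Itga6 with Itgb4, Itgav with Itgb5 and Itga11 with Itgb1 did not pass in either group. Itgav and Itgb5 gave r of 0.3 and 0.449 (adjusted permutation p of r 0.33 and 0.1). For Itga11 and Itgb1 r was -0.288 and -0.085 (adjusted permutation p of r 0.33 and 0.74). Itgav with Itgb8 passed only in vehicle mice (r 0.568 and 0.375, adjusted permutation p of r 0.037 and 0.19). Itga4 with Itgb7 passed only in nintedanib mice (r 0.483 and 0.699, adjusted permutation p of r 0.086 and 0.0061). Itga8 and Itgb1 gave r of -0.357 and -0.273 (rho -0.362 and -0.235, adjusted permutation p of r 0.22 and 0.33), and Itga6 and Itgb4 of the hemidesmosome gave -0.23 and -0.169 (rho -0.221 and -0.051, adjusted permutation p of r 0.41 and 0.53). The 1 negative relation was that of the platelet receptor chains Itga2b and Itgb3 in vehicle mice, with r of -0.539 (rho -0.6, adjusted permutation p of r 0.048), -0.547 without the 2 farthest mice and -0.682 within series A. In nintedanib mice it was -0.231 (rho -0.169, adjusted permutation p of r 0.41), and the difference between the groups was not tested. Itgae and Itgb7, whose medians moved in opposite directions with bleomycin, gave positive r within both groups, 0.614 and 0.641 (rho 0.562 and 0.623, adjusted permutation p of r 0.022 and 0.012), and 0.383 and 0.558 without the 2 farthest mice.

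**Figure D5:**
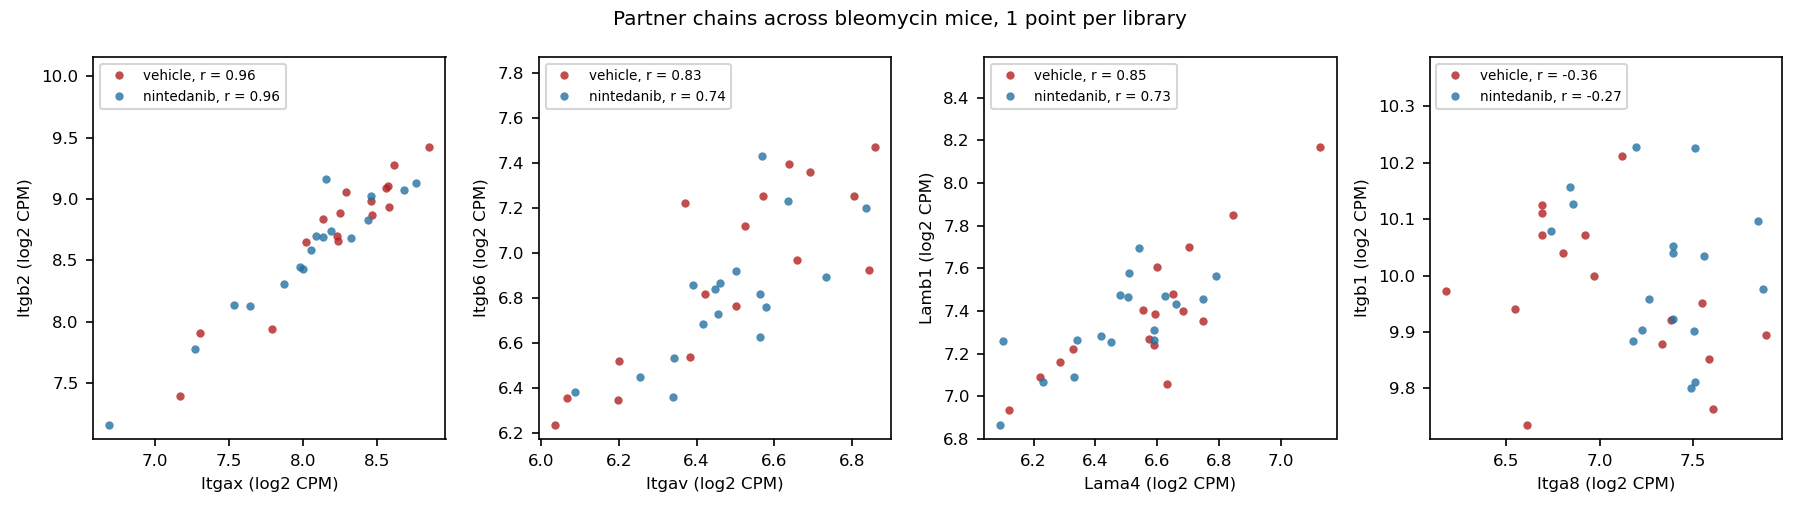
Log2 CPM of partner chains in each library of 16 vehicle (red) and 17 nintedanib (blue) mice, with Pearson's r in each panel. Itgax with Itgb2, Itgav with Itgb6 and Lama4 with Lamb1 rise together in both groups, and Itga8 with Itgb1 does not.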

How the data were processed

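The authors deposited whole-number read counts of 21938 genes in 43 libraries as 1 table. STAR 2.7.0f, R 3.6.0 and the GRCm38 build stand in the submitters' processing notes without a role. Counting tool, strand setting and annotation: not given in the sources used here, so reads of overlapping or antisense genes cannot be told apart. A reference list of gene names gave a symbol, and GENCODE M21 (GRCm38) gave coordinates and exon lengths, for all 21938 genes.

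The filter of filterByExpr (minimum count 10, minimum total 15) left 14836 genes with 99.962% of counts. Each comparison was a contrast in 1 edgeR quasi-likelihood model of the 3 groups (TMM scaling, robust dispersion, two-sided), with Benjamini-Hochberg adjustment over all genes tested and a threshold of 0.05. Members had a median biological coefficient of variation of 21.2%, all genes of 13.6%. CPM are counts over the TMM-scaled library size, RPKM divides it by the union exon length, and log2 CPM has a prior count of 2. The script was tested on simulated counts. Software comprised Matplotlib 3.10.9, SciPy 1.17.1, pandas 2.3.3, NumPy 2.4.6 and Python 3.11.15, and in R 4.3.3 the packages sva 3.50.0, DESeq2 1.42.0, limma 3.58.1 and edgeR 4.0.16.

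The members, the pathway and marker lists, the partner pairs and the tests were chosen with earlier results of these data known. Every member is described except 1, which counts in the totals and is not reported here; of each other list, at most the 4 called genes with the largest change per comparison are named. The 9 listed alternatives were RLE scaling, library totals, no filter, DESeq2, a fit of only the groups compared, series as a covariate, series A alone, 2 surrogate variables, and leaving out libraries with Adipoq at 1 CPM or more; leaving out each library was chosen after seeing the data.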

Additional observations from a re-analysis of the deposited data

Results flagged for a closer look

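In 2 members 1 control library lay far from the other 9 by Dixon's test at the 95% level. For Itga6 the highest control library, replicate 2, had 290.1 CPM, and the other control libraries ran from 145.8 to 196.1 CPM. For Lama1 the same library had 8.064 CPM, and the others ran from 1.779 to 3.933 CPM. The 43 members were examined in the control group, where chance alone gives such a value in about 1 of 20 genes. That library held less than 1 CPM of Adipoq.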

How the results depend on the processing

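Between vehicle and control mice the members called numbered 29, against 57.9% of all genes, and 15, against 23.9%, with the Adipoq libraries left out, where 2 control libraries remain. Between nintedanib and control mice they numbered 31 (53.2% of all genes), and 14 (21.6%) in that setting. Between nintedanib and vehicle mice 2 were called (7.31%), 1 with no filter on low counts (4.82%), 0 with only these groups in the fit (4.44%), 0 with 2 surrogate variables (7.59%) and 0 without the Adipoq libraries (3.44%). DESeq2 called 3 there (9.26%), adding Nid2, and series A alone called 3 others, Itga4, Itgae and Itgb7, all lower (log2 -0.393, -0.618 and -0.632, 7.59%). With 1 library left out, 26 to 29, 30 to 33 and 0 to 4 members were called. In all 9 alternatives Agrn, Itga1, Itga2, Itga5, Itga7, Itga8, Itgae, Itgav, Itgax, Itgb2, Itgb6, Lama5 and Lamb3 passed the test between vehicle and control mice. Where not named below, the log2 changes kept their sign in the 9 alternatives; the cause of the changes was not tested.

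Some log2 changes took the other sign. Between vehicle and control mice, 2 surrogate variables gave Hspg2 -0.038, Itgad -0.738, Itgal -0.028, Itgb3 -0.21, Itgb4 0.2, Lamb1 -0.041, Lamb2 -0.044, Nid1 -0.055 and Nid2 -0.336, leaving out the Adipoq libraries gave Itgam -0.011, Itgb4 0.217 and Nid2 -0.051, and series A alone gave Itgb4 0.041. Between nintedanib and vehicle mice, library totals gave Itga10 -0.024, Itga9 -0.001, Itgb3 -0.015 and Itgb8 -0.029, the fit of these groups only gave Itga10 -0.001, and the series covariate gave Itga10 -0.006 and Itga3 0.009. Leaving out the Adipoq libraries gave Itga10 -0.039, Itga3 0.018, Itgav 0.008, Itgb3 -0.033 and Lamb3 0.013 there, and series A alone gave Itga3 0.087, Itga6 0.021, Itgav 0.015, Itgb8 -0.081 and Lama1 0.048. With 2 surrogate variables that comparison gave Itga3 0.048, Itga7 0.035, Itgav 0.095, Itgb5 0.007, Itgb6 0.032, Lama1 0.389, Lamb1 0.033, Lamb3 0.033, Lamc1 0.049 and Nid1 0.002. Between nintedanib and control mice, the series covariate gave Itga11 0.039, 2 surrogate variables gave Itga11 0.053, Itgb3 -0.004, Lamb1 -0.008 and Nid1 -0.053, leaving out the Adipoq libraries gave Itga11 0.043, Itgal 0.014 and Itgb3bp 0.158, and series A alone gave Itgb3bp 0.022.

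With library totals, the partner correlations of Itga8 and Itgb1 (r = -0.573, vehicle) and Itga4 and Itgb7 (0.586, vehicle) newly passed the test. That of Lama5 and Lamb2 (0.482, vehicle) no longer passed. Series A alone holds fewer mice, 11 vehicle and 13 nintedanib, and there further relations no longer passed. In vehicle mice these were Itga5 and Itgb1 (0.638), Itgav and Itgb8 (0.582), Itgae and Itgb7 (0.553), Lama5 and Lamb2 (0.467) and Lamb1 and Lamc1 (0.654). In nintedanib mice it was Lamb1 and Lamc1 (0.519). Without the Adipoq libraries, Itga5 and Itgb1 (0.477), Lama4 and Lamb1 (0.523) and Lama5 and Lamb2 (0.619) no longer passed in nintedanib mice. That setting removed 0 vehicle libraries, so r of Itga2b and Itgb3 in vehicle mice stayed at -0.539. This relation also no longer passed there, where only its permutation p and the adjustment over all relations were computed anew. No paired analysis was possible because the labels give no replicate numbers shared between groups. Depth limits Itgad, at most 68 counts in a library, and the group sizes limit small changes.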
